A study of Mus musculus with 15 samples.

Results

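The hedgehog genes described here are the 3 ligands Shh, Ihh and Dhh, the receptor Ptch1, the signal transducer Smo, the transcription factors Gli1, Gli2 and Gli3, and the ligand-binding inhibitor Hhip. They were taken by symbol from the array annotation as a fixed list of 9 genes, out of 18193 genes named there. The list was chosen with earlier results of these data known. The 9 genes have 21 probe sets out of 45037, between 1 and 4 each. Pituitary RNA of newborn mice (postnatal day 1) was pooled by genotype, and every pool was read on an Affymetrix Mouse Genome 430 2.0 array of its own. The groups compared were Pit1 +/+ (wild type) and Pit1 dw/dw, which carries the Snell dwarf allele of the pituitary transcription factor Pit1, with 5 pools each and 10 in all. Both groups are on the DW/J strain background, and the same high fat chow is named for both. The sources used here call the replicates biological and give neither the number nor the sex of the pituitaries in a pool. The dwarf allele is present in every cell of these mice. Pooled RNA of a whole gland also cannot tell fewer cells of a type from less RNA per cell.

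Hedgehog ligands are secreted lipid-modified proteins that bind Ptch1 and so free Smo, which acts through the primary cilium to turn the Gli proteins into activators. Gli1, Ptch1 and Hhip are themselves standard transcription targets of the pathway, and Ptch1 and Hhip bind ligand and so limit its reach. In the embryo, Shh from the oral ectoderm and the ventral diencephalon is needed for early growth and patterning of Rathke's pouch, the epithelium that forms the anterior pituitary, while Dhh is known as a Schwann cell ligand and Ihh as a ligand of growing cartilage.

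Gh, the growth hormone gene, lay between 14.15 and 14.28 log2 units in Pit1 +/+ and between 7.15 and 10.31 in Pit1 dw/dw, and Tshb, the thyrotrophin beta subunit gene, between 11.67 and 12.29 and between 6.20 and 7.01. Both depend on Pit1, and both fell in dw/dw (log2 changes of -5.40 and -5.13, limma adjusted p = 0.00586 and 0.000244). Pit1 itself (Pou1f1) could not be checked, because it has no probe set of its own in the annotation given. Pit1 +/+ pool 1 has a genotype entry in the labels that differs from what its title, source and strain give, and leaving it out changed no call on the 9 genes. Prph, a gene of peripheral neurons, was above 7 in 3 pools (Pit1 +/+ 3 and Pit1 dw/dw 2 and 3) and at most 3.78 in the others. Of the genes listed for the sex of the pools, Xist was at most 4.20 in Pit1 +/+ 4 and Pit1 dw/dw 2 and 3. It was at least 9.60 in the others. Eif2s3y was 3.05 in Pit1 +/+ 1 and at least 8.45 in the others. Leaving out the pools with Prph above 7 thus also removes the dw/dw pools low in Xist. Of the 8 listed markers of pituitary hormone cells and epithelium 7 were measured, and their mean lay between 8.90 and 11.07 in every pool. Array medians ran from 4.31 to 4.43.

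The deposited values are log2 RMA signals, so 1 unit is a doubling, and the brightness of different probe sets gives no order of RNA amounts between genes. Each gene is represented by its brightest probe set, and 6 of the 21 probe sets lay above 4.37, the median of all values, in all 10 pools. A further 11 lay below it in every pool, and such probe sets are called dim here. Differences between groups were tested with limma over all genes, with Benjamini-Hochberg adjustment and a threshold of 0.05.

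None of the 9 hedgehog genes passed the threshold between Pit1 dw/dw and Pit1 +/+. Limma called 0 of 9, and 3 of them (Shh, Ptch1 and Gli2, with lower means in dw/dw) had an unadjusted p under 0.05. Over all genes 0.770% were called after adjustment. No share of all genes or probe sets at an unadjusted p under 0.05 is given, so counts at that cut have no baseline. The pools of the groups did not overlap for 2 of the 9, Shh and Ptch1, against 2.78% of all genes. The median log2 change of the 9 genes was -0.12, against -0.02 over all genes. That median was not stable in direction: it was 0.03 without the pools with Prph above 7 and -0.29 with array weights, and with 1 pool left out it was nearest to 0 without Pit1 +/+ 1 (-0.03), Pit1 +/+ 4 (-0.04) and Pit1 dw/dw 4 (-0.06). Of the 21 hedgehog probe sets 0 were called, where limma called 0.371% of all probe sets, and 4 of the 21 had an unadjusted p under 0.05.

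**Figure D1:**
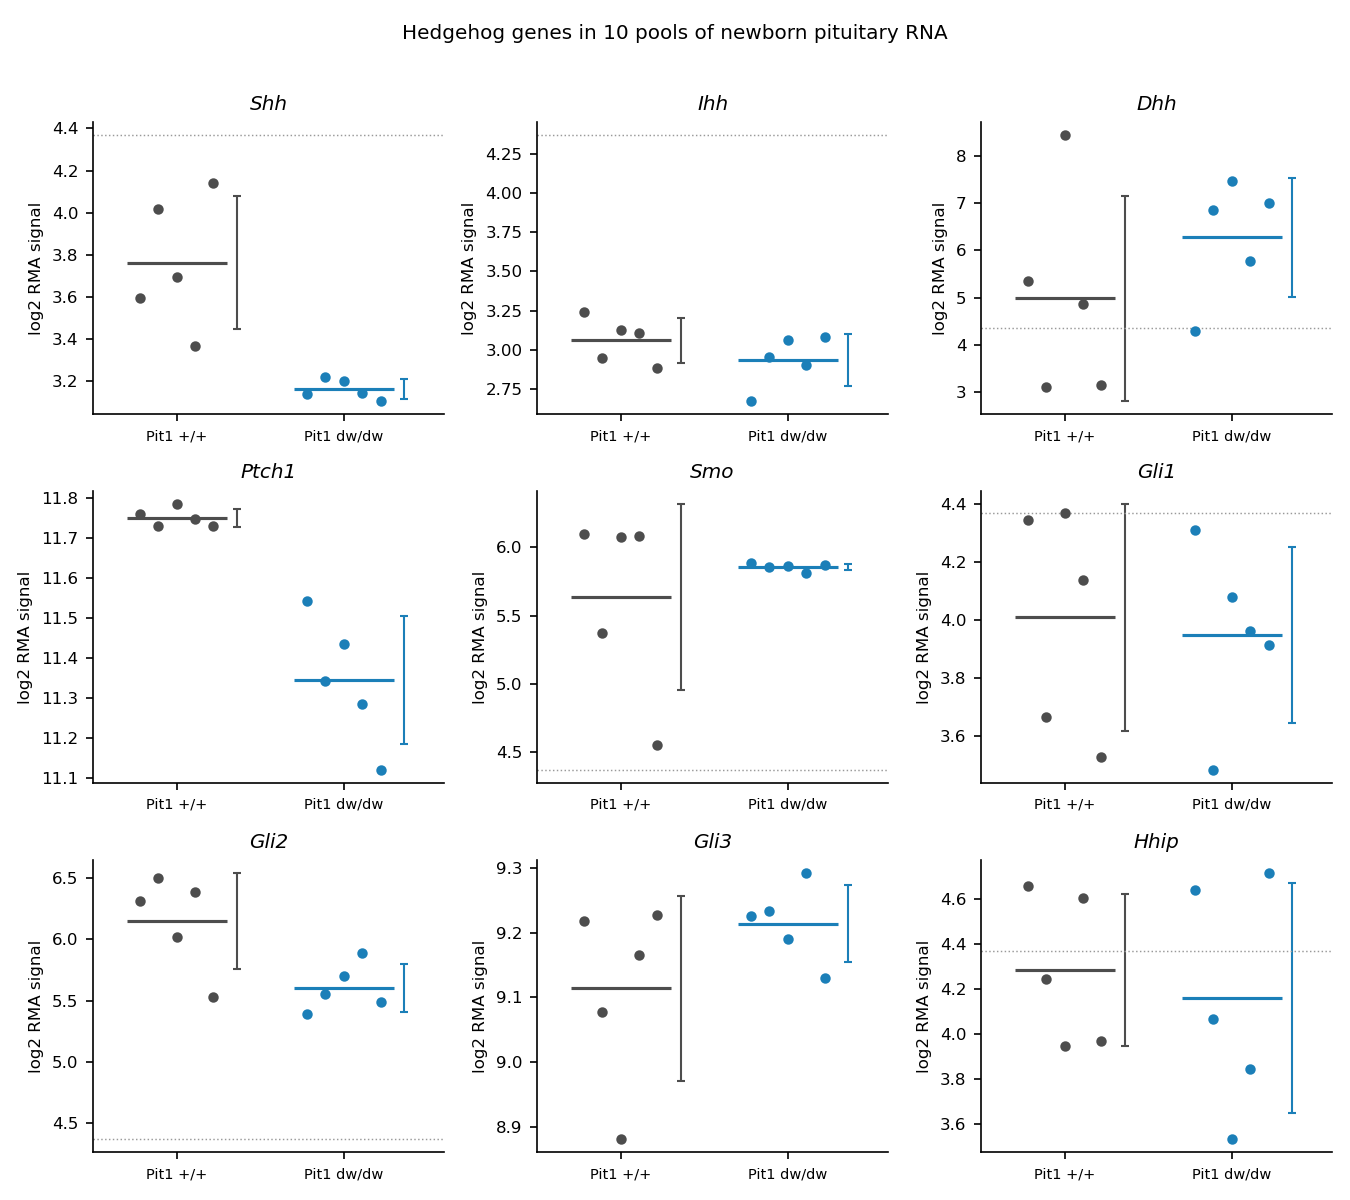
Log2 RMA signal of the 9 hedgehog genes (1 probe set each) in every pool, by group, with the group mean as a line and the SD over 5 pools as a bar. The dotted line, where shown, is the median of all array values, 4.37. Every Pit1 dw/dw pool is below every Pit1 +/+ pool for Shh and for Ptch1, and Dhh spreads from 3.12 to 8.44.

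Shh, the ligand that patterns Rathke's pouch, was dim. Its values were 3.59, 4.02, 3.70, 3.36 and 4.14 in Pit1 +/+ pools 1 to 5. They were 3.14, 3.22, 3.20, 3.14 and 3.10 in Pit1 dw/dw. All 5 dw/dw pools lay below every wild-type pool. The difference was -0.60 log2 units (SE 0.17, 95% interval -0.97 to -0.23), with an adjusted p of 0.200, so it did not pass. All 10 values lie below the median of all values, where signal and RNA amount may not keep a fixed ratio, so no fold is given. Under 22 other settings it stayed below 0, between -0.70 and -0.36, with adjusted p-values from 0.0925 to 0.380. The second Shh probe set was dimmer still, between 2.28 and 2.82, and overlapped between the groups, with a change of -0.12 (adjusted p = 0.951 over all probe sets). The mean of 7 oral epithelium genes, keratins among them, lay between 3.53 and 3.87 in Pit1 +/+ and between 3.67 and 4.01 in Pit1 dw/dw. Limma called 0 of the 7, with 2 at an unadjusted p under 0.05: Krt13, a keratin of stratified epithelium, at 1.03 (adjusted p = 0.0913, all dw/dw pools above all wild-type pools), and Sfn at -0.31 (adjusted p = 0.396). As deviations from the group mean over the 10 pools, Shh with that mean gave Pearson r = 0.14 and Spearman rho = 0.43 (adjusted permutation p = 0.768 and 0.559), and r was 0.0055 without the 2 pools farthest on the mean.

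Ihh, the cartilage ligand, had its 1 probe set at 2.67 to 3.24 in all pools. It read 3.24, 2.95, 3.13, 3.11 and 2.89 in Pit1 +/+ and 2.67, 2.95, 3.06, 2.90 and 3.08 in Pit1 dw/dw. The groups overlapped, with means of 3.06 ± 0.14 and 2.93 ± 0.16 (SD, n = 5 each). The difference was -0.13 (95% interval -0.35 to 0.09, adjusted p = 0.842). Of 9 measured genes of bone and cartilage, limma called 0, and 1 had an unadjusted p under 0.05. Their mean lay between 4.20 and 6.38 in Pit1 +/+ and between 4.86 and 6.61 in Pit1 dw/dw. Ihh with that mean gave r = 0.42 and rho = 0.38 (adjusted permutation p = 0.540 and 0.559), and r was 0.03 without the 2 pools farthest on that mean.

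Dhh, the Schwann cell ligand, varied more from pool to pool than any other of the 9 genes. In Pit1 +/+ it read 5.36, 3.12, 8.44, 4.87 and 3.16. In Pit1 dw/dw it read 4.30, 6.85, 7.46, 5.78 and 6.996. Each group held pools high and low, and the wild-type range took in all the dw/dw values. The group SDs were 2.17 and 1.26. The difference was 1.29 (95% interval -0.75 to 3.33, adjusted p = 0.818). It ran from 0.45 with the ganglion and bone means as covariates to 2.15 without Pit1 +/+ pool 3, and passed in none of 23 other settings. The second Dhh probe set stayed between 2.39 and 2.77 throughout.

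The Dhh level moved with genes of ganglion and Schwann cells. The mean of the 9 measured genes of that list (of 12 listed) ran from 4.74 to 10.11 in Pit1 +/+ and from 5.80 to 9.40 in Pit1 dw/dw, and limma called 0 of the 9 between the groups, with 0 at an unadjusted p under 0.05. As deviations from the group mean, Dhh followed it with r = 0.92 and rho = 0.92 over 10 pools (adjusted permutation p = 0.00477 and 0.0204 over the 9 relations tested). Without the 2 pools farthest on the list mean, Pit1 +/+ 3 and Pit1 dw/dw 3, r was 0.84 over 8 pools (adjusted permutation p = 0.0947). Over all 15 arrays of the fit r was 0.90 and rho 0.88 (adjusted permutation p = 0.00072 and 0.00135).

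Of single marker genes, Mbp kept near the order of Dhh, while Sox10 and Prph did not follow it in every pool. Mbp read 10.24, 6.61, 12.22, 8.35 and 5.69 in Pit1 +/+ pools 1 to 5. It read 8.58, 11.23, 11.51, 9.50 and 11.06 in Pit1 dw/dw. Like Dhh, Mbp was highest in pool 3 of each group. Sox10, the transcription factor of Schwann and other neural crest cells, was 4.73 and 3.92 in Pit1 +/+ pools 2 and 5, where Dhh was lowest. It was 9.96 in Pit1 +/+ pool 3 and 8.89 in Pit1 dw/dw pool 3, the pools with the highest Dhh of their groups. In Pit1 dw/dw pools 2 and 4 Sox10 was alike, at 7.22 and 7.29, where Dhh was 6.85 and 5.78. Prph was 10.59 and 9.89 in pool 3 of each group, but 3.51 in Pit1 dw/dw pool 5, where Dhh was second highest of its group. Whether Dhh in these pools came from nerve tissue was not tested.

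**Figure D2:**
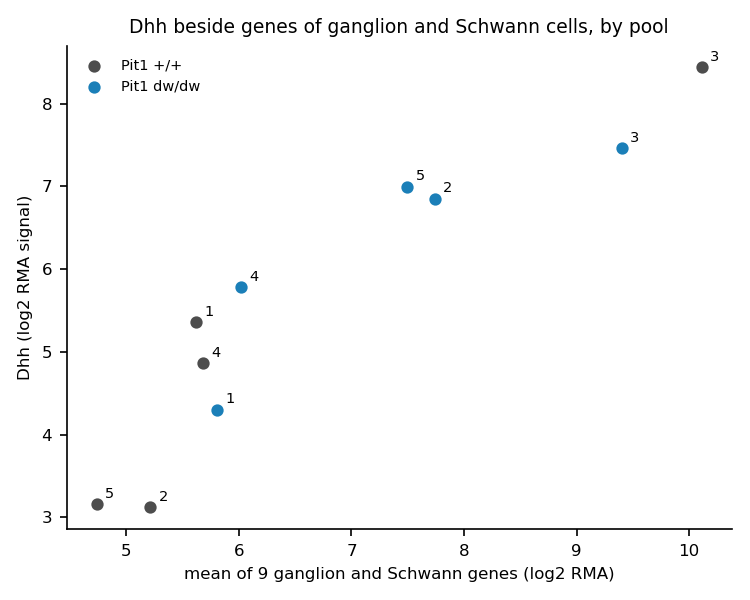
Dhh against the mean of 9 ganglion and Schwann genes in each pool (both log2 RMA signals). Numbers beside points are pool numbers and colours are groups. Dhh is highest in pool 3 of each group, where the list means are 10.11 and 9.40, and lowest in Pit1 +/+ pools 2 and 5.

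Ptch1, the receptor that also binds and removes ligand, was bright and tightly grouped in wild type. It read 11.76, 11.73, 11.78, 11.75 and 11.73 in Pit1 +/+ pools 1 to 5. It read 11.54, 11.34, 11.44, 11.29 and 11.12 in Pit1 dw/dw. Every dw/dw pool lay below every wild-type pool, and the dw/dw pools were spread more widely (SD 0.16 against 0.023, n = 5 each). The difference was -0.41 (SE 0.09, 95% interval -0.61 to -0.21), or 1.32-fold lower, with an adjusted p of 0.0632, so it missed the threshold.

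Ptch1 was the hedgehog gene nearest to the threshold. Over 23 other settings it kept its sign, with values from -0.45 to -0.23 and adjusted p-values from 0.00747 to 0.456. It passed in 3 of them, with array weights (0.00747), with an intensity trend and robust prior (0.0174) and without dw/dw pool 1 (0.0484). In the others the adjusted p was above that of the main fit. It was 0.123 when only both groups compared were fitted. Without the pools with Prph above 7 the difference was -0.43 (adjusted p = 0.456). The other 2 Ptch1 probe sets were dim, at 3.24 to 3.78 and 2.36 to 2.78, and overlapped between the groups. Their changes were -0.20 and -0.07 (adjusted p = 0.895 and 0.976 over all probe sets). They disagree in brightness with the first, and averaging the 3 gave -0.23 (adjusted p = 0.438).

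**Figure D3:**
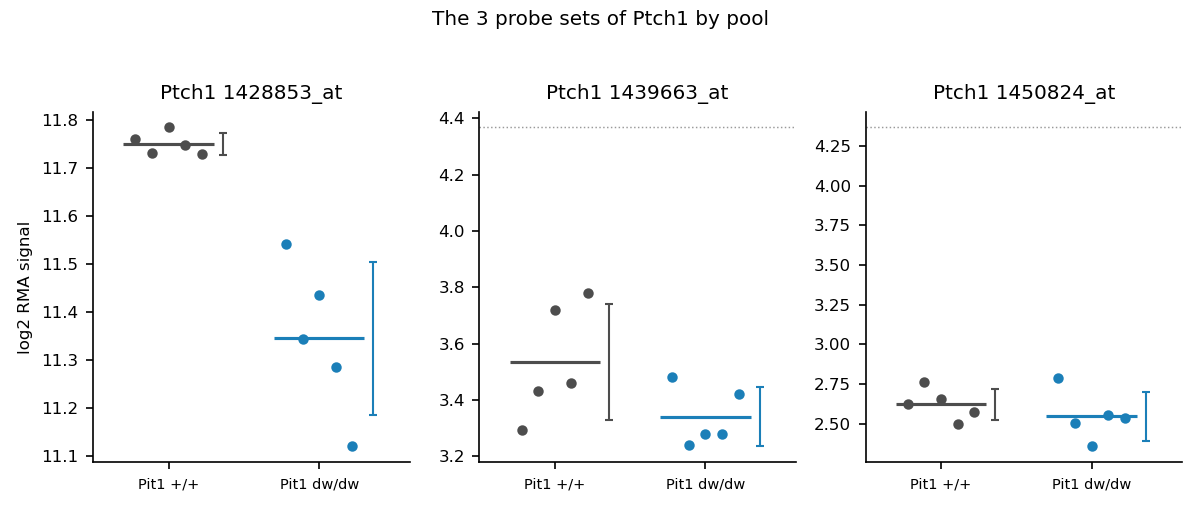
Log2 RMA signal of the 3 Ptch1 probe sets in every pool, with the group mean as a line and the SD over 5 pools as a bar. The dotted line, where shown, is the median of all array values, 4.37. The groups are apart in the bright probe set, at 11.12 to 11.54 against 11.73 to 11.78, and overlap in the dim ones.

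Smo, the membrane protein that carries the signal inwards, read 6.10, 5.37, 6.08, 6.08 and 4.55 in Pit1 +/+. It read 5.88, 5.85, 5.86, 5.81 and 5.87 in Pit1 dw/dw. Wild-type pools 2 and 5 were the lowest of all 10 and the other 3 the highest, so the wild-type range took in every dw/dw value. The SD was 0.68 in wild type and 0.026 in dw/dw. The difference was 0.22 (95% interval -0.27 to 0.71, adjusted p = 0.894), and its sign turned in 3 of 23 other settings. It was -0.05 without wild-type pool 5, -0.11 with array weights and -0.13 with _x_at, _s_at and _a_at probe sets left out, where another probe set stood for Smo. The other 2 Smo probe sets lay between 2.89 and 4.03 and overlapped.

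Gli1, whose transcription is the usual readout of active hedgehog signalling, was nearly dim and overlapped between the groups. It read 4.34, 3.67, 4.37, 4.14 and 3.52 in Pit1 +/+, and 4.31, 3.48, 4.08, 3.96 and 3.91 in Pit1 dw/dw. In each group 1 or more pools lay near the low end, and 1 of 10 values was above the median of all values. The difference was -0.06 (95% interval -0.47 to 0.35, adjusted p = 0.982). It was above 0 in 4 of 22 other settings, with 0.14 without the pools with Prph above 7 as the highest.

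Gli2, the main activator among the Gli proteins, read 6.32, 6.50, 6.02, 6.39 and 5.53 in Pit1 +/+. It read 5.39, 5.56, 5.70, 5.89 and 5.49 in Pit1 dw/dw. Wild-type pools 1 to 4 were above all dw/dw pools, and wild-type pool 5 was among them. The difference was -0.55 (SE 0.20, 95% interval -0.97 to -0.12, adjusted p = 0.396). It was -0.70 without wild-type pool 5 (adjusted p = 0.111) and passed with array weights (-0.64, adjusted p = 0.0212), 1 of 23 other settings. The second Gli2 probe set, between 4.72 and 5.69, changed by -0.28 (adjusted p = 0.795 over all probe sets).

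Gli3, the main repressor among the Gli proteins, was even across the groups. Its brightest probe set read 9.22, 9.08, 8.88, 9.16 and 9.23 in Pit1 +/+ and 9.23, 9.23, 9.19, 9.29 and 9.13 in Pit1 dw/dw. The lowest was wild-type pool 3, and the groups overlapped. The difference was 0.10, and its 95% interval, -0.08 to 0.28, was the narrowest of the 9 (adjusted p = 0.858). The other probe sets, at 6.35 to 7.50 and 2.65 to 3.58, overlapped between the groups.

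Hhip, a membrane-bound inhibitor that captures hedgehog ligands, read 4.66, 4.24, 3.95, 4.61 and 3.97 in Pit1 +/+. It read 4.64, 4.07, 3.53, 3.84 and 4.71 in Pit1 dw/dw. The groups overlapped throughout, with the highest and the lowest pool both in dw/dw. The difference was -0.12 (95% interval -0.61 to 0.36, adjusted p = 0.960). It was 0.03 without the pools with Prph above 7 and also without Pit1 dw/dw pool 3, -0.03 without Pit1 +/+ pool 1, -0.26 without Pit1 dw/dw pool 5 and -0.43 with array weights. Its 4 probe sets changed by -0.08, 0.10, -0.12 and -0.48, and overlapped between the groups. The last of these, with an unadjusted p of 0.0443, had an adjusted p of 0.690 over all probe sets.

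**Figure D4:**
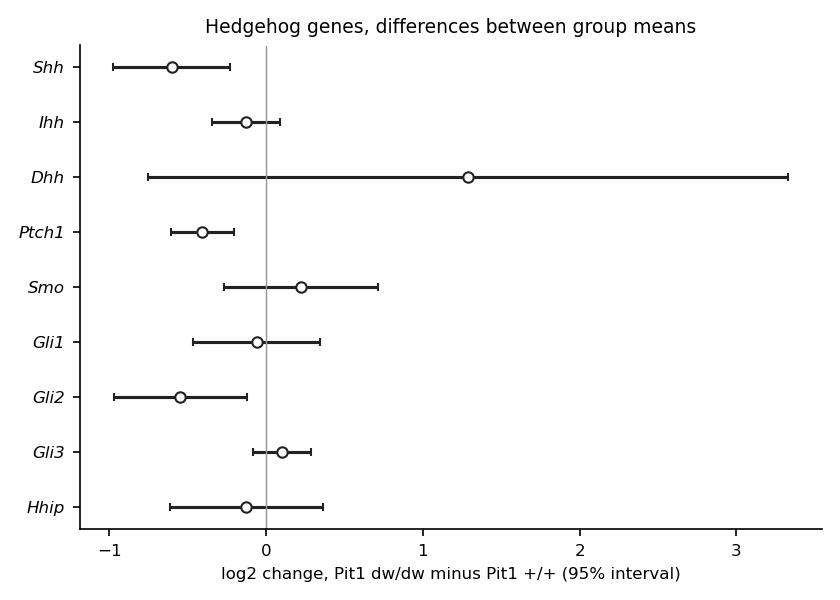
Log2 change of each hedgehog gene between Pit1 dw/dw and Pit1 +/+ with its 95% interval, 5 pools a group. The unadjusted intervals of Shh (-0.97 to -0.23), Ptch1 (-0.61 to -0.21) and Gli2 (-0.97 to -0.12) lie below 0, and no gene passed after adjustment over all genes. The interval of Dhh is the widest and that of Gli3 the narrowest.

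Within groups, no relation among the pathway's ligands and target genes passed. As deviations from group means over 10 pools, Ptch1 with Gli1 gave r = 0.39 and rho = 0.72 (adjusted permutation p = 0.540 and 0.107). Hhip with Gli1 gave 0.27 and 0.12 (0.581 and 0.775), and Hhip with Ptch1 gave -0.17 and -0.19 (0.768 and 0.757). Among ligands, Shh with Gli1 gave r = -0.68 and rho = -0.67 (adjusted permutation p = 0.367 and 0.184), Ihh 0.28 and 0.24 (0.581 and 0.757), and Dhh 0.41 and 0.16 (0.581 and 0.757). Without the 2 pools farthest in Gli1, Pit1 +/+ 5 and Pit1 dw/dw 2, the 3 ligand values of r were -0.55, 0.10 and 0.43, and r was 0.53 for Ptch1 (adjusted permutation p = 0.0947). Shh and Ihh are dim and Gli1 is nearly so, which limits what such values can show.

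The genes whose deviations over the same 10 pools were most like those of a member were sought among up to 11783 genes at or above the median level. For Gli1 they were Paxx, Zfp825 and Kcnn4 (r = 0.96, 0.95 and 0.95), and for Ptch1 Ankle2, Dennd1b and Pdxdc1 (r = 0.95, 0.95 and 0.94). For Hhip they were Gm11767, Zbtb3 and 4930461C15Rik (r = 0.92, 0.92 and 0.91), and for Shh Gna13, Vbp1 and Lin7c (r = 0.97, 0.96 and 0.96). For Dhh, added after its values were seen, they were Cryab, Kcnj10 and Art3 (r = 0.99, 0.98 and 0.98). These values describe the pools, which share 1 array for all genes, and carry no test.

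The other genes of the pathway did not pass either. Of 38 listed genes 35 were measured, and limma called 0 of 35, where 0.770% of all genes were called, with 3 at an unadjusted p under 0.05 (Lrp2, Foxf2 and Sox9). Their median change was 0.08, and 22 of 35 changes were above 0. The median was -0.01 without Pit1 +/+ pool 5 and 0.03 without Pit1 +/+ pool 2. It was 0.01 with the ganglion and bone covariates and 0.0003 with array weights, so its direction was not stable. With array weights 1 of the 35 was called higher and 2 lower. The groups did not overlap for 1 of the 35, Lrp2, a share near the 2.78% of all genes.

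Among the 5 measured co-receptors and binding proteins, Lrp2, the endocytic receptor megalin that takes up Shh, came nearest. It read 3.77, 3.98, 3.66, 3.74 and 3.91 in Pit1 +/+ and 3.48, 3.23, 3.45, 3.29 and 3.01 in Pit1 dw/dw. All dw/dw pools lay below all wild-type pools, at levels under the median of all values. The change was -0.52 (SE 0.16, adjusted p = 0.231), and it passed in 1 of 23 other settings, with array weights (adjusted p = 0.0417). With _x_at, _s_at and _a_at probe sets left out another probe set stood for Lrp2, and the change was -0.01 (adjusted p = 0.997). Boc, an immunoglobulin-family co-receptor for Shh, ran from 9.55 to 10.77 in Pit1 +/+ and from 10.34 to 10.71 in Pit1 dw/dw (0.37, adjusted p = 0.619).

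Of the 6 genes of ligand processing and release, 0 had an unadjusted p under 0.05. Hhat, the acyltransferase that adds palmitate to hedgehog ligands, ran from 3.30 to 4.11 in Pit1 +/+ and from 3.93 to 4.17 in Pit1 dw/dw (0.27, adjusted p = 0.654). Disp1, the membrane protein Dispatched that releases lipid-modified ligand, ran from 4.76 to 6.19 and from 5.56 to 6.24 (0.28, adjusted p = 0.873).

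Of the 11 measured genes of signal transduction behind Smo, 0 had an unadjusted p under 0.05. Kif7, a kinesin at the tip of the cilium that regulates Gli proteins, ran from 4.12 to 4.78 in Pit1 +/+ and from 4.56 to 4.80 in Pit1 dw/dw (0.21, adjusted p = 0.741). Sufu, which holds Gli proteins inactive, ran from 4.81 to 5.65 and from 5.31 to 5.58 (0.13, adjusted p = 0.894). In Sufu and Disp1 wild-type pool 5 was the lowest of all pools, as in Smo. That pool was also the lowest in genes outside the pathway, such as Pitx1 (6.10) and Lhx3 (7.80). It was the highest in others, such as Col25a1 (10.48).

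Of the 5 measured genes of the primary cilium, 0 had an unadjusted p under 0.05. Dync2h1, the motor subunit that carries cargo back from the cilium's tip, read 7.02, 7.15, 7.03, 6.99 and 6.51 in Pit1 +/+ and 7.003, 6.78, 6.40, 6.71 and 6.33 in Pit1 dw/dw. The groups overlapped through wild-type pool 5 and dw/dw pool 1 (-0.30, adjusted p = 0.633). Ift88, a subunit of the intraflagellar transport particle, ran from 5.56 to 5.96 and from 5.63 to 5.72 (-0.13, adjusted p = 0.818).

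Of the 8 genes listed as transcription targets in several tissues, 2 had an unadjusted p under 0.05, in opposite directions. Foxf2, a forkhead factor of mesenchyme, was dim and read 3.81, 3.61, 3.61, 3.88 and 3.28 in Pit1 +/+ and 3.51, 3.16, 2.94, 3.46 and 2.82 in Pit1 dw/dw. The groups overlapped through wild-type pool 5, and the change was -0.46 (SE 0.15, adjusted p = 0.296). It passed in 1 of 22 other settings, with array weights (adjusted p = 0.0173). Sox9, a factor of cartilage and of progenitor cells, read 7.25, 7.47, 6.50, 6.84 and 7.41 in Pit1 +/+ and 7.47, 7.90, 7.08, 7.45 and 7.79 in Pit1 dw/dw. The groups overlapped, and the change was 0.44 (SE 0.19, adjusted p = 0.529), with 0 of 23 other settings past the threshold.

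**Figure D5:**
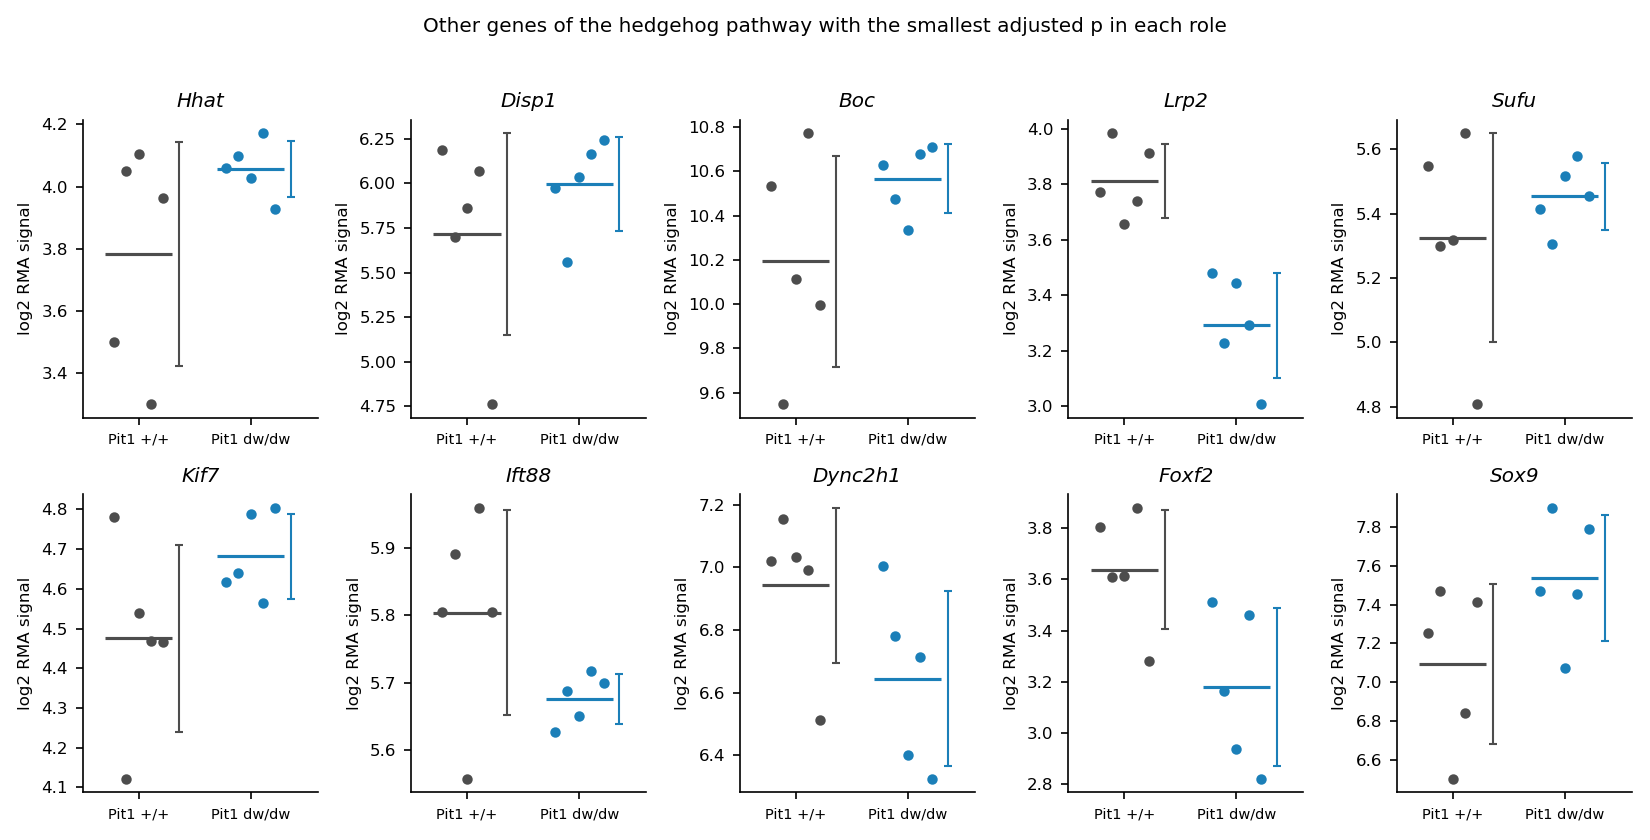
Log2 RMA signal by pool of the 10 other hedgehog pathway genes with the smallest adjusted p in their role, 2 a role, with group means as lines and the SD over 5 pools as bars. Of these 10, Lrp2 is the 1 gene whose groups do not overlap, at 3.01 to 3.48 in Pit1 dw/dw against 3.66 to 3.98 in Pit1 +/+.

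Markers of other tissues in the gland were set beside these values. The mean of 8 connective tissue genes ran from 8.79 to 9.97 in Pit1 +/+ and from 9.47 to 10.06 in Pit1 dw/dw. All 8 changes were above 0, with a median of 0.26. Of the 8, Dcn had an unadjusted limma p under 0.05, with every dw/dw pool above every wild-type pool (0.28, adjusted p = 0.532). The mean of the 7 hormone cell and epithelium genes ran from 10.44 to 11.07 and from 8.90 to 9.46. With the connective tissue mean as a covariate the Ptch1 change was -0.42 (adjusted p = 0.101), and with the ganglion and bone means it was -0.40 (adjusted p = 0.0772). The mean of 3 measured progenitor genes ran from 6.13 to 6.58 and from 6.26 to 6.57, and that of 8 neural lobe and hypothalamus genes from 4.53 to 5.14 and from 4.55 to 4.78. In the last list 1 of 8 genes had an unadjusted p under 0.05, Oxt, the oxytocin gene. Its dw/dw pools lay below the median of all values, and its wild-type pools on both sides of it. All dw/dw pools were lower than all wild-type pools (3.84 to 3.98 against 4.25 to 4.73, change -0.58, limma adjusted p = 0.0715). Of these 4 lists, limma called 2 genes, Gh and Tshb, of the hormone list, which fell in dw/dw. The median change of that list was -0.01, and 3 of its 7 changes were above 0.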

How the data were processed

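The authors deposited 1 table of log2 signals made with RMA, per the submitters' processing notes, with 45101 probe sets in 15 columns. For RMA, neither version nor settings are given in the sources used here. Biotin-labelled cRNA was made from total RNA isolated with an Ambion kit, per the labels. Values from 1.83 to 14.8 were checked to be on a log2 scale. Probe sets were named from the array annotation given: 64 are controls, 34945 name 1 gene, 932 several and 9160 none, and 34741 matched a current gene record. Pou1f1 and 3 of the listed pathway genes were not analysed here.

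Samples were grouped by title. limma 3.58.1 (R 4.3.3; lmFit and eBayes, two-sided) fitted a mean for each of 3 groups over all 15 arrays, on the brightest probe set of each gene. One group enters that fit and has no values in the text. Benjamini-Hochberg adjustment was over 18193 genes, or over 45037 probe sets where said. Relations over pools used 100000 shuffles within groups and adjustment over 9 relations. They and the search for like genes had been planned over all 15 arrays, and giving them over the 10 pools compared was chosen after seeing the data. The number of arrays limits the precision. The fit and the permutation test were tested on simulated data.

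The members, gene lists and tests were chosen with earlier results of these data known. Named were the 9 members, other hedgehog genes past the threshold, the 2 with the smallest adjusted p in each role, and the 3 genes most like Gli1, Ptch1, Hhip and Shh. Hormone, Prph, Sox10 and other singly named marker values and the genes like Dhh were chosen after their values were seen.

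Alternatives were median centring, a second quantile normalisation, averaging the probe sets of each gene, leaving out _x_at, _s_at and _a_at probe sets or genes below 4.37 on more than 10 arrays, array weights, a robust prior with an intensity trend, fitting only both groups compared, the replicate number as a block, list means or Xist as covariates, leaving out pools with Prph above 7, and each of the 10 pools in turn. The connective tissue covariate was chosen after seeing the data. Figures were drawn with matplotlib 3.10.9.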

Additional observations from a re-analysis of the deposited data

Results flagged for a closer look

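In each group of 5 pools, the highest and lowest value of every hedgehog probe set and marker list mean was set against the others by Dixon's gap at the 95% level, over 58 sets of 5. Chance marks about 1 in 20 such groups, and 3 of 58 were marked (5.17%). Pit1 +/+ pool 5 was low for the dimmer Dhh probe set, at 2.39 against 2.64 in the nearest pool. The ganglion and Schwann list mean was high in Pit1 +/+ pool 3, at 10.11 against 5.68, a pool that also had the highest Dhh of its group. The bone and cartilage list mean was high in Pit1 dw/dw pool 5, at 6.61 against 5.27. None of these values was removed.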

How the results depend on the processing

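The changes of the 9 genes were recomputed under 23 other settings, or 22 where the filter on dim genes removed the gene. The sign turned in 9 of 204 values, none of them past the threshold. Where 0 of the hedgehog genes were called, 1 was with the trend and robust prior, 2 were with array weights, and 0 to 1 with 1 pool left out, the 1 being Ptch1 without Pit1 dw/dw pool 1. Over all genes 140 were called, 571 with array weights, 51 without pools with Prph above 7, and 83 to 161 with 1 pool left out (86 without Pit1 +/+ 2 or 4, and 83, 93 and 90 without Pit1 dw/dw 2, 4 and 5). The causes were not tested. Replicate numbers are shared between the groups. As deviations from the group mean, taken over all genes, same-numbered pools correlated at -0.196 to 0.639 and over 0.1 in 3 of 5 pairs. Differently numbered pools were not compared, so whether the numbers pair the pools was not tested. With the replicate block the Ptch1 change stayed at -0.41 (adjusted p = 0.0997), and 137 genes were called. Another scaling moved the median change of all genes by at most 0.018. Dim probe sets (Shh and Ihh) and a nearly dim one (Gli1) limit what can be seen of those genes.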
